A study of Mus musculus with 8 samples.

Results

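Rnd GTPases, chimerins and the pathway proteins they act on were followed in brown fat, the tissue that burns lipid for warmth, as 9 genes chosen by symbol from the 21759 genes of the deposited table: Rnd1, Rnd2, Rnd3, Chn1, Chn2, Rac1, Rhoa, Rock1 and Rock2. All 9 symbols were found, and where a symbol had several rows the row of highest mean over the arrays was used. The genes were proposed with their differences between the diets already known, so those differences and their adjusted p-values describe the choice and support nothing further. The tissue came from male C57BL/6 mice on 8 arrays, 4 from a group labelled NCD and 4 from a group labelled HFD, a high-fat diet in the series title. Both groups share sex, strain and tissue, and the labels do not spell out NCD. The sources used here do not give age, length of feeding or whether each array holds a separate animal, so the p-values reflect no more than the scatter among these arrays, which may be technical.

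RhoA and Rac1 are small GTPases, molecular switches that shape the actin cytoskeleton. RhoA in its GTP-bound form activates the kinases ROCK1 and ROCK2, which raise actomyosin contraction, and Rac1 drives actin branching at the cell edge. Rnd proteins are related GTPases that hold GTP without hydrolysing it, so they are set mainly by how much protein is present. Rnd3, also called RhoE, binds and inhibits ROCK1 and recruits a GTPase-activating protein to RhoA. Chimerins act on Rac: they carry a diacylglycerol-binding domain and a domain that makes Rac hydrolyse its GTP. In cultured fat cell precursors, RhoA and ROCK signalling is known to hold back brown fat differentiation.

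Expression was measured on a whole-transcript mouse array of Affymetrix, which gives 1 value per transcript cluster, a group of probes placed along a gene. Values are normalized log2 intensities, so a difference of 1 is a doubling, and levels of different genes are not compared because probes differ in brightness. Array medians ran from 5.91 to 5.99. The arrays NCD 2 and NCD 3 had the widest spread over rows (SD 1.79 and 1.82), with HFD 4 close behind (SD 1.78). NCD 1 and HFD 3 stood apart in skeletal muscle markers. The 12 brown adipocyte markers examined, Ucp1 and Cidea among them, all lay above 6.41, the 95th percentile of 1096 olfactory receptor genes taken as a stand-in for genes not expressed.

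Rnd3 rose and Chn1 fell in HFD, and the other 7 members did not pass the threshold in either direction. Rnd3 was 1.73-fold higher (95% interval 1.46 to 2.05) and Chn1 1.84-fold lower (95% interval 1.55 to 2.19). In limma with Benjamini-Hochberg adjustment over all genes and a threshold of 0.05, 1 member of 9 was higher and 1 lower, where 0.142% of all genes passed (0.00919% as higher and 0.133% as lower). The arrays of the groups did not overlap for 2 members, against 3.83% of all genes. Since the same contrast brought these genes to attention, nothing is read from these shares. The median difference was 0.03 over the 9 members and -0.01 over all genes.

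The start regions of Rnd3 and Chn1 are shown, chosen after their differences and their letters had been seen. A contrast between their windows therefore carries no weight as an account of the differences. Each window runs from 250 bases before to 50 bases after an annotated transcript start, in RefSeq on assembly GRCm38.p6, and is written 5′ to 3′ on the gene's strand. Capitals mark matches on either strand to the motifs searched: the CArG box (the site of serum response factor), TATAAA (the TATA box), CCAAT (bound by NF-Y), GGGCGG (a GC box), CACGTG (an E-box), TGACGTCA (a cyclic AMP response element) and TGANTCA (an AP-1 site). The marked matches do not overlap each other. The table held windows for 5 of the 9 members (Rnd3, Chn1, Chn2, Rhoa and Rock2). Matches in the windows of Chn2, Rhoa and Rock2, which did not pass the threshold, are not described here.
Rnd3, chr2:51149062-51149361, minus strand: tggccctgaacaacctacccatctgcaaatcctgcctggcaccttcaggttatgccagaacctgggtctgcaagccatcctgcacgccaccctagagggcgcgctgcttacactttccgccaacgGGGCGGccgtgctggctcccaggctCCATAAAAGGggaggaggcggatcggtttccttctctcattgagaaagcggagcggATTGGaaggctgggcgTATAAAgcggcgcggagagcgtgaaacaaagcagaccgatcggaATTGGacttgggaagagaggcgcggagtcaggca
Chn1, first start, chr2:73775297-73775596, minus strand: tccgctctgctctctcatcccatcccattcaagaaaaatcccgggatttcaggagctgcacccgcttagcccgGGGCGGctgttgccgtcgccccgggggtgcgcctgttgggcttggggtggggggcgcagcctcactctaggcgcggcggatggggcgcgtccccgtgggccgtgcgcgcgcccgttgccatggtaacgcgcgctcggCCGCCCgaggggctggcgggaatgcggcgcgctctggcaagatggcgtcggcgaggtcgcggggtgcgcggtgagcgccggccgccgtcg
Chn1, second start, chr2:73660374-73660673, minus strand: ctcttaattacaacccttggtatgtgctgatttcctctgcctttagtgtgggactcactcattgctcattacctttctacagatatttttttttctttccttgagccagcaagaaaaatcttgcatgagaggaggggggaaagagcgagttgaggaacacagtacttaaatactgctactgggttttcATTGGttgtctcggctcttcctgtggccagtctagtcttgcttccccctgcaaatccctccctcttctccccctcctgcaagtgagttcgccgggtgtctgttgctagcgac

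The Rnd3 window held a CArG box from 100 to 91 bases before the start, a motif present in 1.63% of the 32851 windows of the table. It also held TATAAA from 28 to 23 bases before the start (13.6% of windows), CCAAT on the other strand on either side of the start (37.4% of windows) and GGGCGG 125 bases before it (35.7% of windows). The first Chn1 window held GGGCGG on each strand, had a GC content of 73.3% against a median of 52.7% over all windows, and held neither a CArG box nor TATAAA. The second Chn1 window had a GC content of 47.7% and 1 match, CCAAT on the other strand from 62 to 58 bases before the start. CACGTG (7.15% of windows), TGACGTCA (1.79%) and TGANTCA (7.81%) were in none of these windows. These are letter matches in short windows. Which Chn1 start is used in brown fat was not tested, nor was any link between the motifs and the differences.

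Rnd3 is the family member best known as a natural brake on ROCK1. On the NCD arrays its log2 level was 7.16, 7.36, 7.33 and 7.02, and on the HFD arrays 7.96, 8.12, 7.90 and 8.04. Every HFD array lay above every NCD array, with 0.54 between the highest NCD and the lowest HFD array. The NCD mean was 7.22 ± 0.16 (SD, n = 4) and the HFD mean 8.01 ± 0.10 (SD, n = 4), so HFD was higher by 0.79 ± 0.11 (SE, limma adjusted p = 0.00737). The rise ranked 8th among the rises of all genes and 37th by absolute difference in either direction. Rnd3 was 1 of 2 genes past the threshold as higher, a count that was 1 without HFD 4 and 5 without NCD 3 or without HFD 2. In the authors' deposited table its signed fold for diet was 1.72. By the coordinates of the file, for which no genome build is named in the sources used here, the Rnd3 cluster covers chromosome 2 from 50985959 to 51004631 on the minus strand. Exon and UTR positions of the probes were not used here.

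Its relatives Rnd1 and Rnd2 were dim and did not separate by diet. Rnd1, which in neurons acts with plexin receptors in the collapse of the actin network, read 5.61, 5.39, 5.03 and 5.36 in NCD and 5.63, 5.69, 5.09 and 5.01 in HFD. The HFD arrays thus formed a higher and a lower pair inside and just outside the NCD range. The difference was 0.01, with the 95% interval running from -0.35 to 0.37, and the residual SD of 0.30 was larger than that of 93.4% of genes. Rnd2, known for guiding the migration of newborn neurons, had 5.56, 5.74, 5.64 and 5.44 in NCD and 5.84, 5.57, 6.05 and 5.43 in HFD. The groups overlapped, with HFD 1 and HFD 3 above all NCD arrays and HFD 4 just below them. Its difference was 0.13, and the 95% interval ran from -0.17 to 0.42. The mean levels of Rnd1 (5.35) and Rnd2 (5.66) lay under the 6.41 of the olfactory receptors. Differences can be compressed at such levels, so a change in either gene could be larger than its interval shows.

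**Figure D1:**
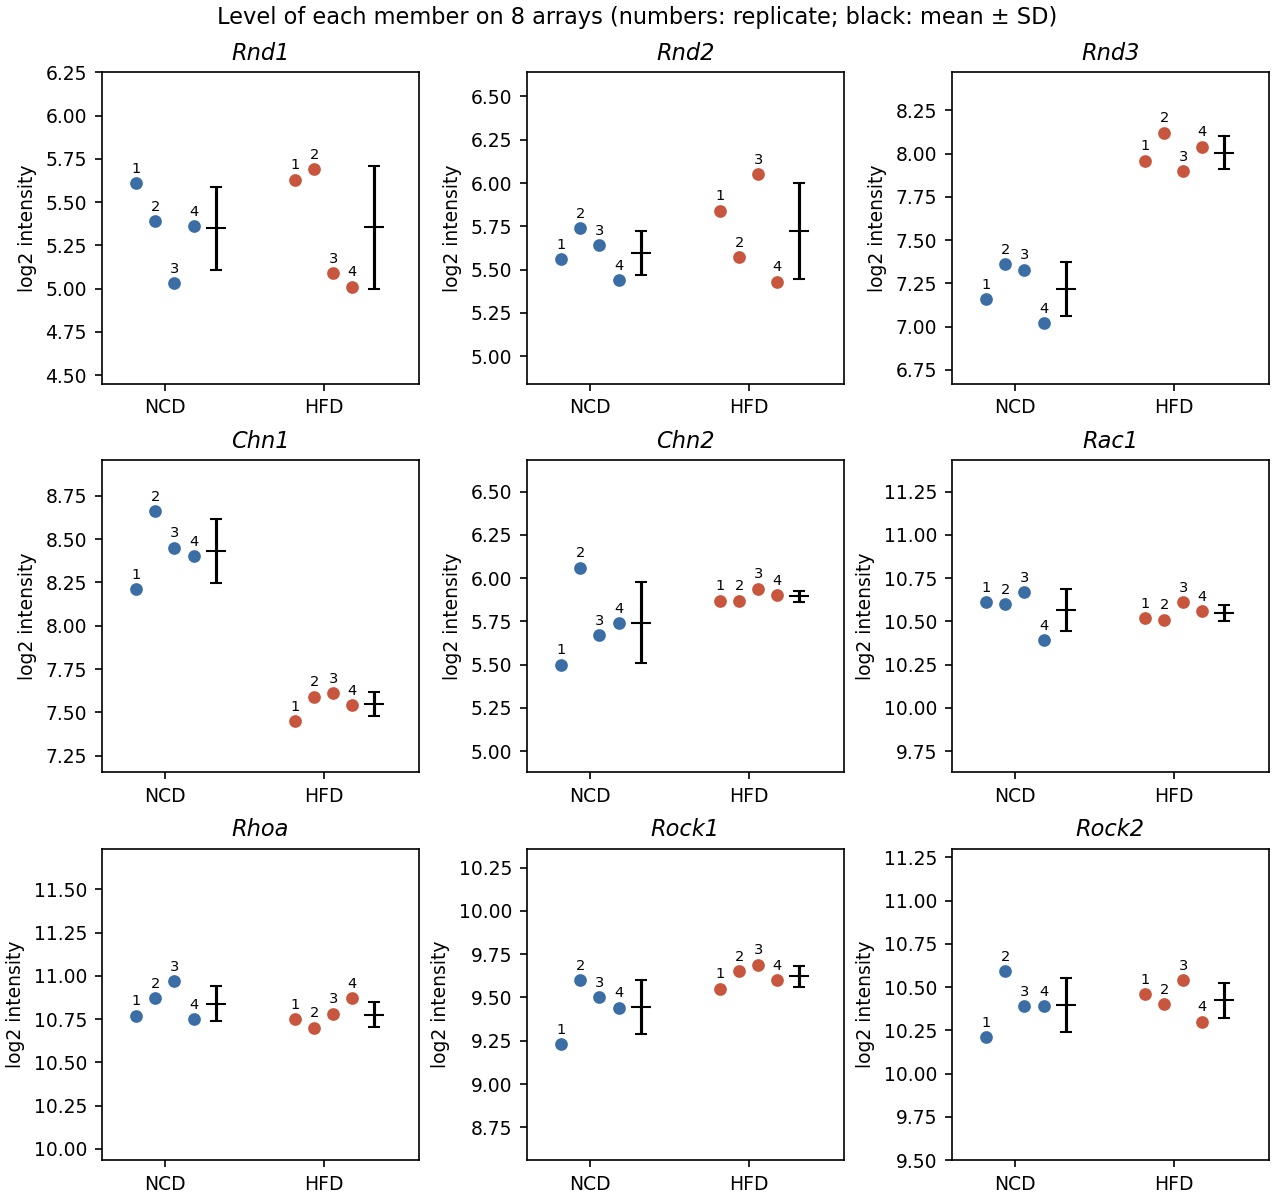
Normalized log2 intensity of each member on the 4 NCD arrays (blue) and 4 HFD arrays (red), numbered by replicate, with mean ± SD in black; every panel spans the same log2 range. Rnd3 lies between 7.02 and 7.36 in NCD and between 7.90 and 8.12 in HFD, Chn1 between 8.21 and 8.66 in NCD and between 7.45 and 7.61 in HFD, and the groups overlap in the other panels.

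Chn1, the alpha chimerin, is a GTPase-activating protein for Rac that is studied mainly in neurons, where it acts downstream of an ephrin receptor in axon guidance. Its log2 level was 8.21, 8.66, 8.45 and 8.40 on the NCD arrays and 7.45, 7.59, 7.61 and 7.54 on the HFD arrays. Every HFD array lay below every NCD array, and 0.60 separated the nearest arrays of the groups. The NCD mean was 8.43 ± 0.18 (SD, n = 4) and the HFD mean 7.55 ± 0.07 (SD, n = 4), a log2 difference of -0.88 ± 0.12 (SE, limma adjusted p = 0.00369). The fall ranked 20th among the falls of all genes and 22nd by absolute difference in either direction, and was 1 of the 29 past the threshold as lower. The signed fold in the authors' deposited table was -1.84. The Chn1 cluster covers chromosome 2 from 73448802 to 73613155 on the minus strand in the file. The start windows shown above for Rnd3 and Chn1 lie outside the spans of their clusters. With the build of the file not named, positions in the file and in the windows are not compared.

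Chn2, the beta chimerin with the same domain plan, had 5.50, 6.06, 5.67 and 5.74 in NCD and 5.87, 5.87, 5.94 and 5.90 in HFD. The HFD arrays lay close together, inside the range of the NCD arrays. Its difference was 0.15 with a 95% interval from -0.11 to 0.42. Its mean of 5.82 also lay under the 6.41 of the olfactory receptors, so a change in Chn2 could be larger than its interval shows.

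Among the NCD arrays, NCD 2 and NCD 3 held the highest pair of values for both Rnd3 and Chn1, and the lowest array was NCD 4 for Rnd3 and NCD 1 for Chn1. Among the HFD arrays, HFD 3 was the lowest for Rnd3 and the highest for Chn1. NCD 2 and NCD 3 are the NCD arrays of wide spread. Without NCD 2 and NCD 3, with HFD 4 of nearly the same spread kept, the Rnd3 difference grew to 0.915. In that fit the Chn1 difference shrank to -0.76, and neither gene passed over all genes (limma adjusted p = 0.0526 and 0.0675 with 2 NCD arrays left).

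**Figure D2:**
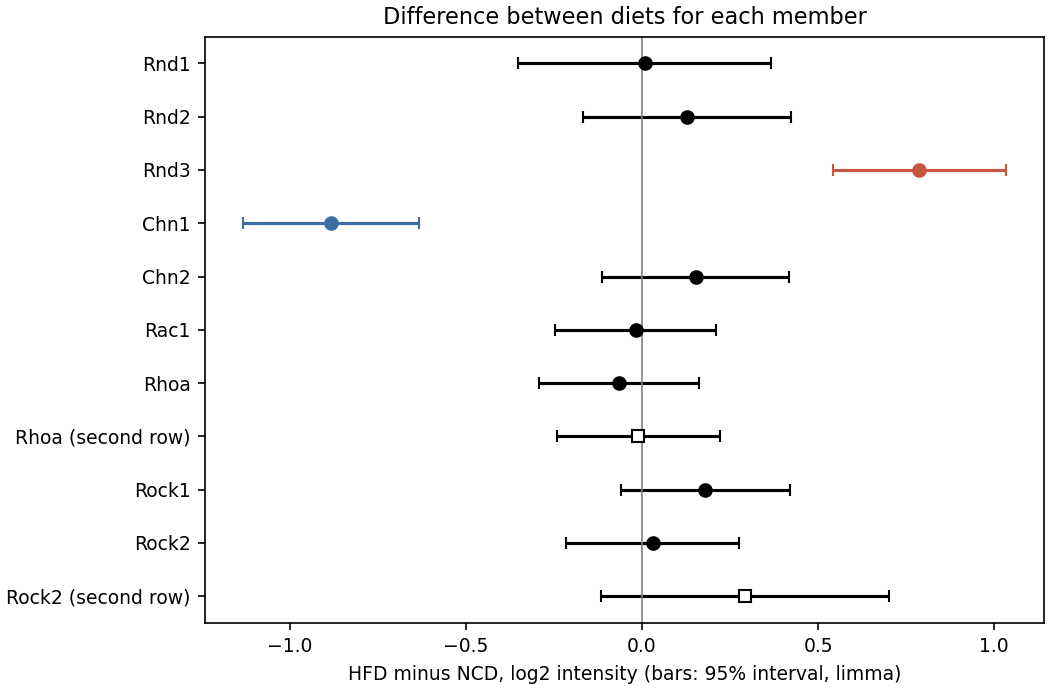
Difference HFD minus NCD in log2 intensity (horizontal axis) with its 95% interval from limma for each member, with open squares for the second rows of Rhoa and Rock2. Rnd3 at 0.79 and Chn1 at -0.88 are the members whose intervals lie clear of 0.

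The targets of these regulators were bright on every array, and none of them passed the threshold. Rac1, the GTPase that chimerins switch off and that insulin uses to move glucose transporters in muscle, read 10.61, 10.60, 10.67 and 10.39 in NCD and 10.52, 10.51, 10.61 and 10.56 in HFD. All 4 HFD arrays lay inside the NCD range. The difference was -0.02 with a 95% interval from -0.25 to 0.21, which corresponds to at most a 1.19-fold change in either direction.

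Rhoa had 2 rows in the table. The brighter, used by rule, is annotated to a span of 615 bases on chromosome 4, from 117401312 to 117401926, whereas the RefSeq gene lies on chromosome 9. It read 10.77, 10.87, 10.97 and 10.75 in NCD and 10.75, 10.70, 10.78 and 10.87 in HFD, which gave -0.07 (95% interval -0.29 to 0.16). The other row, on chromosome 9 from 108208536 to 108240265, read 10.46, 10.68, 10.77 and 10.47 in NCD and 10.57, 10.61, 10.53 and 10.63 in HFD, which gave -0.01 (95% interval -0.24 to 0.22). Both rows overlapped between the groups. Both rows carry the same transcript accession and are not treated as separate measurements of the gene.

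Rock1, the kinase that Rnd3 binds, read 9.23, 9.60, 9.50 and 9.44 in NCD and 9.55, 9.65, 9.69 and 9.60 in HFD. The groups met between 9.55 and 9.60, so they overlapped by 0.05 only. The difference was 0.18 with a 95% interval from -0.06 to 0.42 (limma adjusted p = 0.799), the largest among the members that did not pass. Rock2, the second ROCK kinase, read 10.21, 10.59, 10.39 and 10.39 in NCD and 10.46, 10.40, 10.54 and 10.30 in HFD, which gave 0.03 (95% interval -0.22 to 0.28). A second Rock2 row covers 122 bases and had a mean of 4.81, under the 6.41 of the olfactory receptors, at 0.29 between diets (95% interval -0.12 to 0.70). mRNA levels do not show GTP loading or kinase activity, which were not measured.

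The wider pathway was read from 6 lists of signalling genes, 118 measured genes in all besides the members. In limma, 0 of the 118 rose and 0 fell over all genes tested (smallest adjusted p 0.472), where 0.142% of all genes passed in either direction. At that share, a count of 0 does not set the lists apart from other genes, together or singly. In simulated data, 46.5% of 71 genes given a 1.5-fold change were recovered, and 94% of 67 given a 2-fold change. Changes near 1.5-fold in the listed genes could therefore go uncalled. Before adjustment, 3 were higher and 3 lower at a p under 0.05, which is 5.08% of the lists against 7.24% of all genes, and the methods' t-test gave 10 at that level and 0 after adjustment. The groups did not overlap for 7 of them (5.93%, against 3.83% of all genes). The median difference was -0.0012, with 59 means higher and 59 lower. The count of higher means includes Wasf3 and Flna, whose differences were 0. The lowest difference was -0.26 and the highest 0.38, and 56 of the genes had means under the 6.41 of the olfactory receptors.

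**Figure D3:**
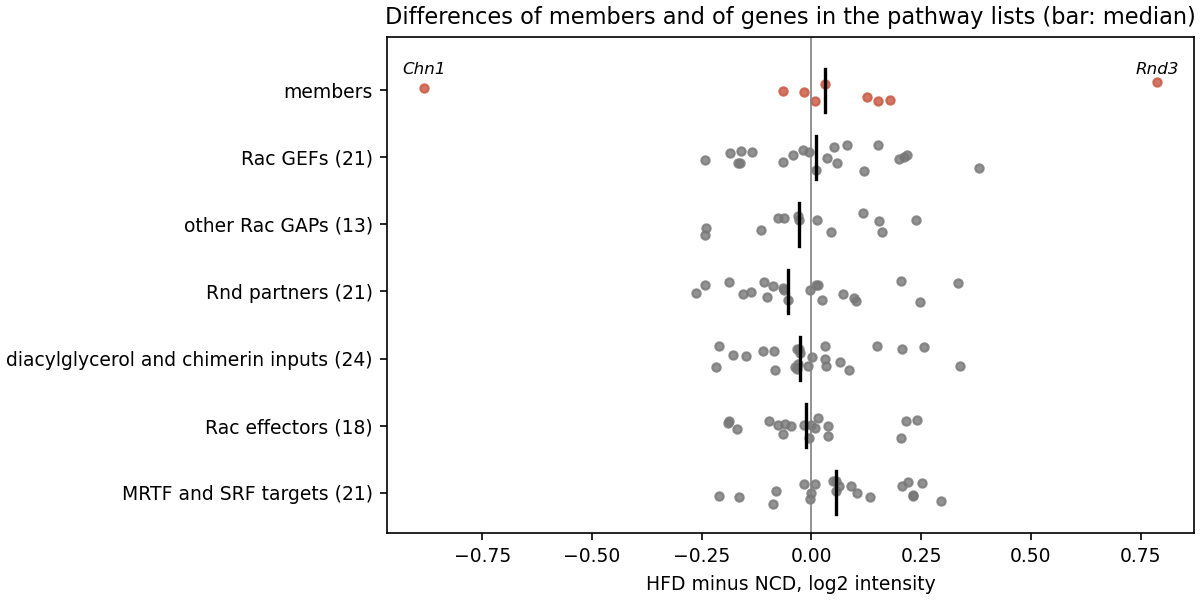
Difference HFD minus NCD in log2 intensity for the 9 members (red) and for the genes of each pathway list (grey, number of genes in brackets), with a bar at each median. Rnd3 and Chn1, chosen with their differences known, lie outside the range of -0.26 to 0.38 that the listed genes span, so nothing is read from that contrast.

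Regulators of GTP loading on Rac gave no gene past the threshold. The 21 Rac exchange factors, which oppose chimerins by loading Rac with GTP, had a median of 0.01. Among them Prex2, an exchange factor activated by phosphoinositides, had an NCD mean of 9.02 ± 0.23 (SD, n = 4) and an HFD mean of 9.40 ± 0.07 (SD, n = 4) without overlap (limma adjusted p = 0.472). The 13 Rac GTPase-activating proteins other than chimerins had a median of -0.03, with Arhgap15 at -0.24 (adjusted p = 0.671 in limma) and a mean level under 6.41.

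Binding partners of Rnd proteins gave 0 of 21 past the threshold and a median of -0.05. Plxnd1, a semaphorin receptor of blood vessels, differed by 0.34 (limma adjusted p = 0.593). Grlf1, the RhoA GTPase-activating protein p190A that Rnd3 recruits and here chosen after its values were seen, differed by -0.26 ± 0.11 (SE, limma adjusted p = 0.653). Diacylglycerol-handling and ephrin genes upstream of chimerins gave 0 of 24 past the threshold, with a median of -0.03. Their smallest p was that of Efnb3, an ephrin whose receptor signals through Chn1 in mouse spinal cord. It differed by 0.26 (limma adjusted p = 0.694), on a mean under 6.41.

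Genes downstream gave 0 past the threshold in either direction. Of 18 Rac effectors, Wasf2, which turns active Rac into actin branching, differed by 0.24 (limma adjusted p = 0.699), and the median was -0.01. Serum response factor, its actin-sensing coactivators and their targets had a median of 0.06 with 15 of 21 means higher, against 47.3% of all genes. The 15 include Flna, whose difference was 0. The mean of this list was highest on NCD 1 (7.71) and HFD 3 (7.86), the arrays highest in skeletal muscle markers, and the list shares Acta2, Cnn1 and Tagln with the mural markers described further on. The part of those cells in the list's values was not tested. Cnn1, a smooth muscle calponin, led them at 0.295 (limma adjusted p = 0.665), or 0.174 without HFD 3, on a mean under 6.41. These lists were read for counts and medians only, and the lists themselves were not tested.

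Marker lists of other cells in the tissue are given beside the Rnd3 and Chn1 values, since in bulk tissue fewer cells of a type and less RNA per cell cannot be told apart. Brown adipocyte list means ran from 10.20 to 10.47 in NCD and from 10.19 to 10.29 in HFD, with 10 of 12 means lower in HFD. The 11 progenitor and fibroblast markers ran from 7.07 to 7.47 in NCD and from 7.23 to 7.54 in HFD, with 10 of 11 means higher in HFD, where 47.3% of all genes had a higher mean. The 10 endothelial markers ran from 7.56 to 7.91 and from 7.67 to 7.96, and the 10 mural and smooth muscle markers from 7.24 to 7.46 and from 7.36 to 7.57, with 7 and 8 means higher. Among the mural markers Rgs5, a pericyte gene named after its values were seen, differed by 0.35 without overlap (limma adjusted p = 0.429). Other genes of that list did not share this size of rise: Cspg4 and Kcnj8 differed by -0.155 and -0.1025, and Abcc9 and Notch3 by 0.025 and 0.0275. Macrophage list means ran from 6.44 to 6.82 in NCD and from 6.55 to 6.89 in HFD, with 9 of 10 markers higher in mean, and all 11 lymphocyte markers had mean levels under 6.41. Nerve and Schwann cell markers, relevant to Chn1, ran from 5.83 to 5.97 in NCD and from 5.95 to 5.96 in HFD, with 11 of 13 under 6.41. None of these lists had a gene past the threshold in limma, and all of them overlapped between the groups in their array means. Their part in the Rnd3 and Chn1 differences was not tested.

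Skeletal muscle markers were high on NCD 1 (list mean 8.89) and HFD 3 (9.52) and between 5.53 and 5.92 on the other arrays. Without both arrays, the Rnd3 difference was 0.80 (limma adjusted p = 0.0287) and the Chn1 difference -0.98 (limma adjusted p = 0.00343). With the muscle list mean as a covariate they were 0.79 and -0.88.

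**Figure D4:**
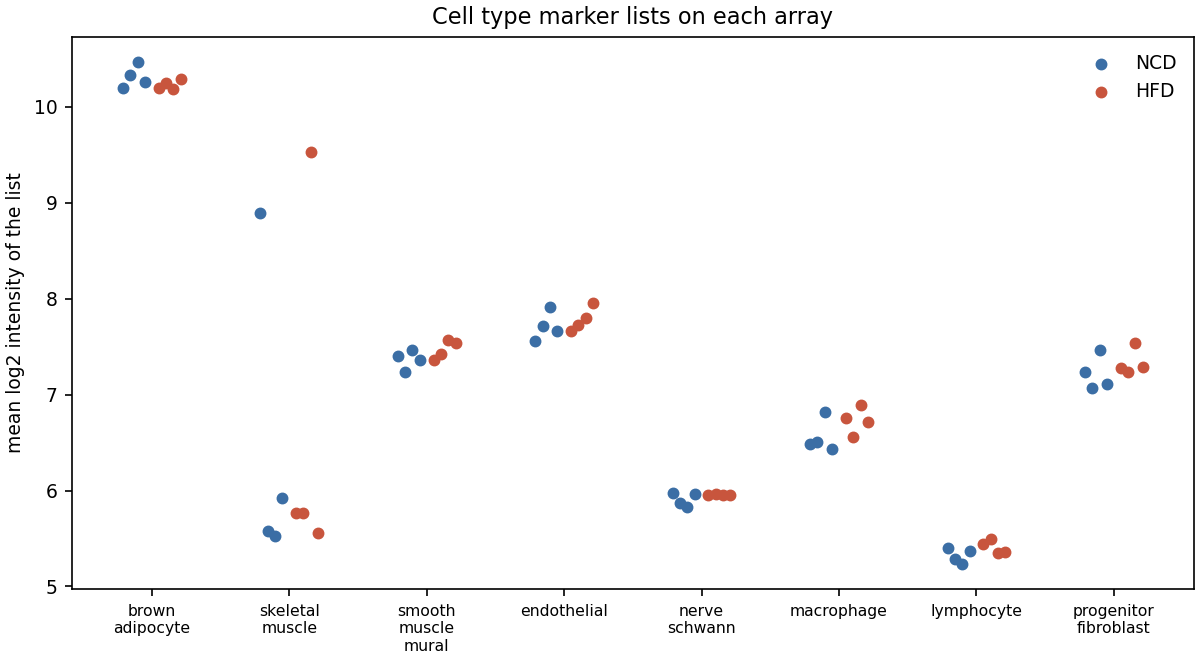
Mean log2 intensity of each cell type marker list (vertical axis) on the 4 NCD (blue) and 4 HFD (red) arrays. Skeletal muscle markers reach 8.89 on NCD 1 and 9.52 on HFD 3, and every list overlaps between the groups.

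Genes whose array-to-array pattern was closest to Rnd3 and Chn1 were ranked among 9294 genes by Pearson's r over the 8 arrays after subtracting each group mean, as a description. Nearest to Rnd3 were Lzic (r = 0.975), Mrpl12, a mitochondrial ribosomal protein (0.974), Tesk2, a kinase that acts on cofilin (0.968), and Brpf3 (0.965). Nearest to Chn1 were Ccnj (0.973), Extl3, an enzyme of heparan sulfate synthesis (0.967), Tmem41b (0.963) and Atp1b3, a sodium pump subunit (0.961). Taking the closest of 9294 genes over 8 arrays gives high values of r by itself, and shared regulation was not tested. None of these genes passed the threshold between diets. Lzic differed by -0.345 and Mrpl12 by -0.10, while Tmem41b had the widest difference of those near Chn1, -0.23.

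**Figure D5:**
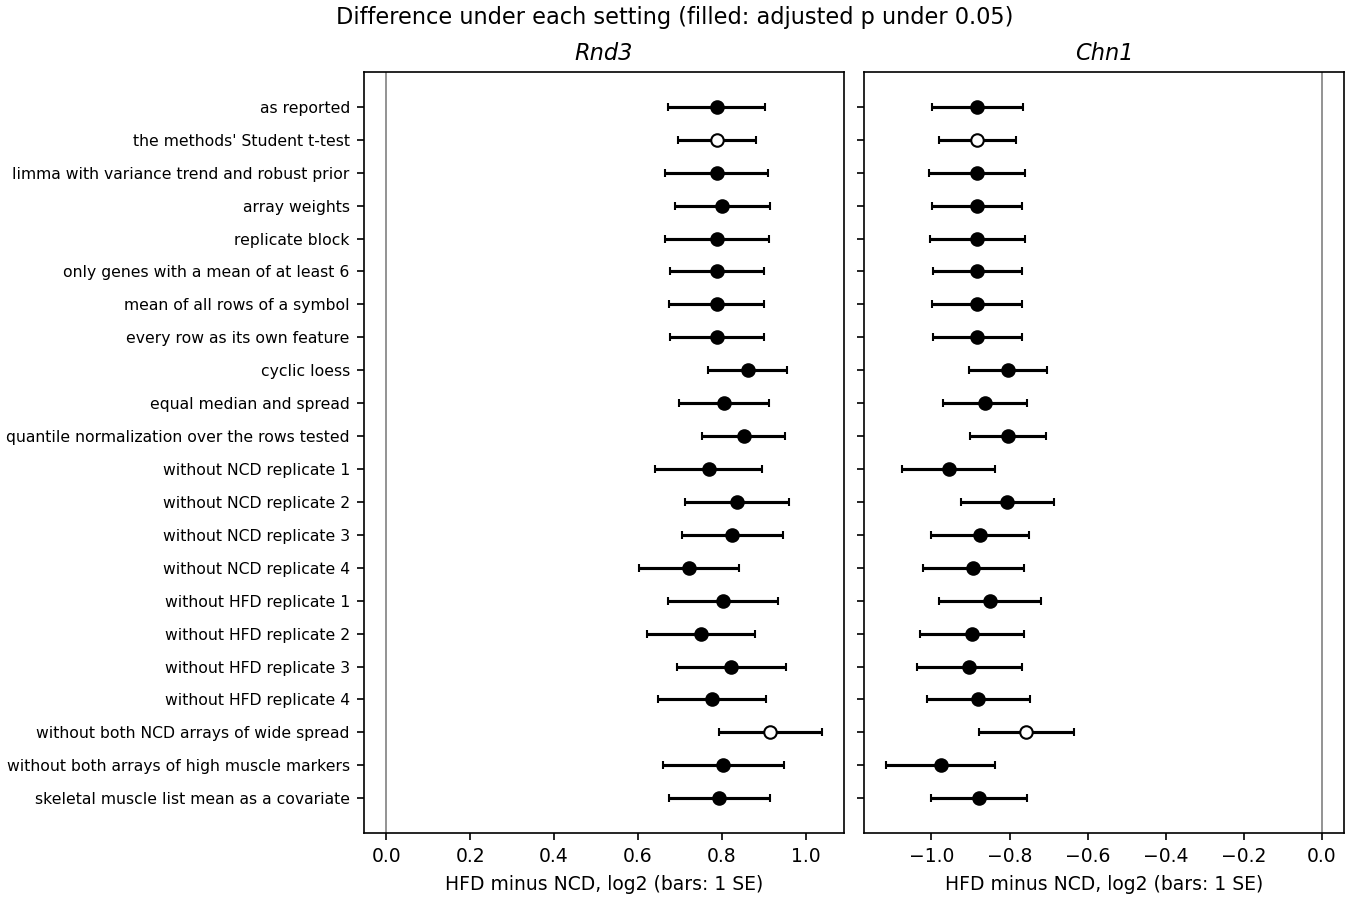
Difference HFD minus NCD in log2 intensity (horizontal axes, bars 1 SE) for Rnd3 and Chn1 as reported and under each other setting, filled where the adjusted p was under 0.05. Rnd3 runs from 0.72 to 0.915 and Chn1 from -0.98 to -0.76, with open points for the methods' t-test and for the fit without NCD 2 and NCD 3.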

How the data were processed

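RNA of 8 samples was hybridised to Affymetrix arrays. The authors took logs of the intensities and quantile normalized them, per the series design text, with Affymetrix Power Tools, also named in the submitters' processing notes. The deposited log2 values are rounded to 2 decimals, and both deposited tables hold equal values. The deposited p-value and the deposited signed fold change for diet are the authors' own. The sources used here do not state the summarization, background correction, genome build or annotation.

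The table had 25254 rows and 21759 gene symbols; the row of highest mean stood for each gene, putting aside 3495 rows. Differences are HFD minus NCD fitted with lmFit and eBayes of limma 3.58.1 (R 4.3.3; the prior had 8.87 degrees of freedom). Tests were two-sided, and p-values were adjusted over all genes by the Benjamini-Hochberg method. The number of arrays limits the precision (median SE of a difference 0.127). The steps were tested on simulated data. Members and lists were chosen with earlier results of these data known. Some of the gene lists are not reported here. Genes named were all members and the listed gene of smallest p in each pathway list (none passed). Also named were the 4 genes of closest pattern per member past the threshold, with a mean of at least 6, predicted genes excluded. Grlf1, Rgs5, Cspg4, Kcnj8, Abcc9, Notch3, Acta2, Tagln, Flna and Wasf3 were named outside this rule, after their values were seen. Other settings tried were variance models, array weights, the replicate block, a filter on dim genes, rows per gene, normalizations and arrays left out.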

Additional observations from a re-analysis of the deposited data

Results flagged for a closer look

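In the skeletal muscle list, NCD 1 (list mean 8.89) lay far above the other NCD arrays and HFD 3 (9.52) far above the other HFD arrays, beyond the gap that Dixon's test allows in a group of 4. Of 38 groups of 4 examined, over the members' rows and the marker lists, these 2 were past that limit, and chance flags about 5% of groups. None of the members' own values was among them.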

How the results depend on the processing

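Rnd3 and Chn1 kept their direction in all 21 other settings and their side of the threshold in 19 each. They lost the call with the methods' t-test (0.79, adjusted p = 0.273, and -0.88, adjusted p = 0.244), which called 0 genes of all tested after adjustment, and 1514 before it. They also lost it without NCD 2 and NCD 3 together (0.915 and -0.76), a fit with fewer arrays in which 3 genes passed. Leaving out each array in turn gave 0.72 to 0.835 for Rnd3 (limma adjusted p from 0.0157 to 0.0392) and -0.96 to -0.81 for Chn1 (adjusted p from 0.00252 to 0.0266), and 21 to 38 genes past the threshold, of which 1 to 5 were higher. All genes past it numbered 31, and 70 (10 of them higher) when limma used a robust prior and a variance trend; the cause was not tested. The split was 2 higher and 29 lower, and 8 higher and 29 lower after cyclic loess.

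Members near 0 changed sign without passing the threshold. Rnd1 turned to -0.018 with cyclic loess, -0.011 with equal median and spread, -0.0175 with quantile normalization over the rows tested and -0.13 without NCD 2 and NCD 3, and ran from -0.10 to 0.12 with an array left out. Rac1 turned to 0.047, 0.038 and 0.043 with those normalizations and 0.05 without NCD 2 and NCD 3, and ran from -0.077 to 0.017 with an array left out. Rhoa turned to 0.015 without NCD 2 and NCD 3, and was -0.022 without NCD 3. Rock2 turned to -0.07 without NCD 1 and HFD 3, and ran from -0.032 to 0.095 with an array left out. Others kept their sign but moved with an array left out: Rnd2 from 0.018 without HFD 3 to 0.225 without HFD 4, Chn2 from 0.072 without NCD 1 to 0.258 without NCD 2, and Rock1 from 0.109 without NCD 1 to 0.2325 without NCD 2. The pathway lists gave 0 genes past the threshold in every setting run. Rnd1, Rnd2 and Chn2 have means under 6, so the filter on dim genes gave them no value.

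No pairing of the arrays by replicate number was visible in the values. Same-numbered arrays had correlations of their deviations from the group means of 0.002, -0.03, -0.03 and -0.17. No NCD array was closest to the HFD array of its own number. Such correlations cannot show that the samples were unpaired by design, and the labels do not say. With the replicate block Rnd3 was 0.79 (adjusted p = 0.0136), Chn1 -0.88 (adjusted p = 0.00385) and 36 genes passed. Dim genes can have understated differences, which was not measured here and limits what can be read for Rnd1, Rnd2 and Chn2.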
